A study of Mus musculus with 42 samples.

Results

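Tumours of mice that had received BXCL701 for 7 days were compared with tumours of mice that had received it on 1 day only. The tumours were grown under the skin from Pan02, a mouse pancreatic adenocarcinoma line, in C57BL/6 mice. BXCL701, also called talabostat, was given once a day by oral gavage at 20 ug per mouse. The comparison used 18 of the 42 tumours of the series: 9 day 7 tumours, 3 each at the 1, 8 and 16 h harvest, and 9 day 1 tumours, 3 each at the same harvest hours. They were chosen by their labelled treatment, day and hour, and every tumour came from a different animal. Values of 3 vehicle tumours of day 7 and 3 vehicle tumours of day 1 are given beside them; these mice received PBS, the vehicle, and were harvested at 0 h. A day 7 tumour had both more doses and more days of growth than a day 1 tumour, so days of dosing and days of growth cannot be told apart.

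BXCL701 blocks post-proline dipeptidyl peptidases, which clip a pair of residues from the start of a protein: DPP4 on the cell surface, DPP8 and DPP9 in the cytoplasm, and fibroblast activation protein on stromal cells. In mouse macrophages, loss of DPP8 and DPP9 activity releases the inflammasome sensor NLRP1B, which activates caspase-1, and caspase-1 then cuts gasdermin D and the precursors of IL-1β and IL-18. Neutrophils, interferon-producing lymphocytes and collagen-producing fibroblasts can be present in subcutaneous tumour tissue in mice.

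Each level below is a scaled value, the authors' estimate of reads per gene after a scaling of each library, and each difference is a log2 difference of (scaled value + 1), day 7 minus day 1, averaged with equal weight over the 1, 8 and 16 h harvests. The scaled totals of the 42 libraries ran between 19.1 and 26.6 (in 1e6 reads). The day 7 8 h replicate 3 stood apart, with a total of 26.6 against 24.2 in the next library of the series, and with the lowest value, -0.41, of an index of how levels depend on transcript length (the highest of the 18 was 0.15). The epithelial keratins of the tumour line were abundant on both days: Krt8 had a median of 22908 in day 7 tumours and 18711 in day 1 tumours, and Krt18 a median of 12638 and 10785. Epcam, another epithelial marker, was low, with medians of 19.7 in day 7 tumours and 53.03 in day 1 tumours.

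Tissue around the tumour was present in unequal amounts. The mean log2 level of 12 keratinocyte markers was above 7 in 1 of 9 day 7 tumours and in 4 of 9 day 1 tumours. Their summed level ran between 772 and 24590 in day 7 tumours and between 830 and 28540 in day 1 tumours, and the medians of Krt1 and Flg were under 1 in both arms. Summed over 14 skeletal muscle markers, levels ran between 149 and 58760 in day 7 tumours and between 1509 and 66400 in day 1 tumours. At 8 h the median difference was -5.13 over the keratinocyte list and -4.26 over the muscle list. The red blood cell genes moved the other way at 8 h, with a mean log2 level of 12.2, 10.98 and 9.11 in the 3 day 7 tumours and 7.17, 7.52 and 7.32 in the 3 day 1 tumours.

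**Figure D1:**
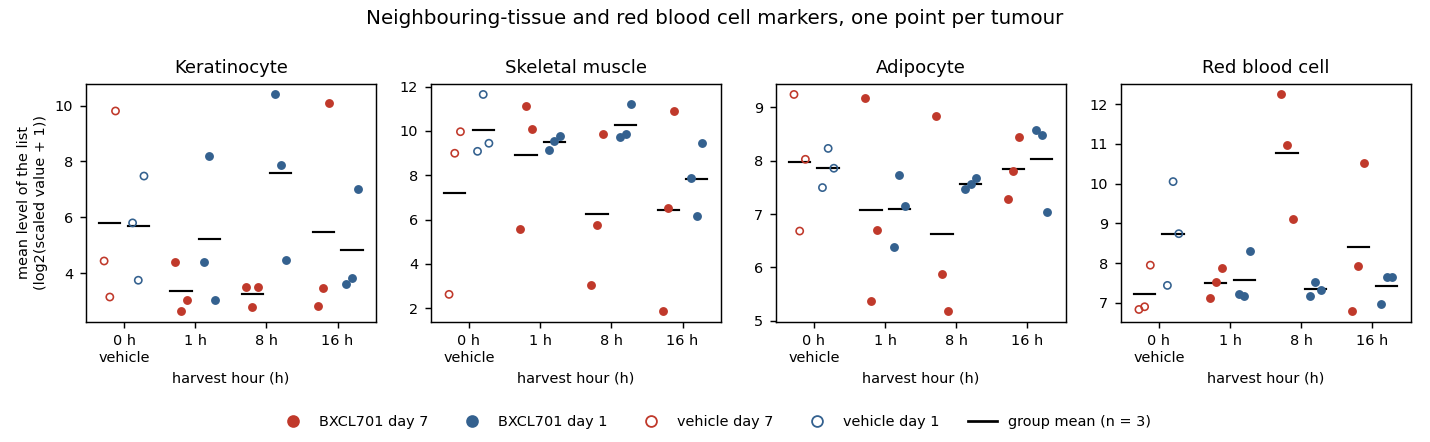
Mean log2(scaled value + 1) of keratinocyte, skeletal muscle, adipocyte and red blood cell marker lists (y axes) by harvest hour (x axes), 1 point per tumour, with the mean of each group of 3 as a line; filled points are BXCL701 tumours, open points vehicle tumours, day 7 in red and day 1 in blue. At 8 h muscle markers ran between 3.05 and 9.86 in day 7 tumours and between 9.72 and 11.2 in day 1 tumours, and red blood cell markers were higher in all 3 day 7 tumours.

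Over the 3 hours together, 20 of 16613 genes tested passed the threshold, an adjusted p under 0.05 from limma with Benjamini-Hochberg adjustment: 17 rose and 3 fell on day 7, 0.12% of the genes tested (0.102% higher, 0.0181% lower). At an unadjusted p under 0.05 there were 1255 genes higher (7.55%) and 1469 lower (8.84%), and the median difference of all genes was -0.02. The genes that rose included 3 neutrophil genes (Stfa2l1, S100a8 and S100a9), 2 inflammatory caspases (Casp1 and Casp4), the class Ib gene H2-T23, the granzyme Gzmm, and also Igfbp6, Mgp and Nupr1. Those that fell were Mex3a, Tln2 and Parp1. No gene passed without the 8 h tumours. The count was 172 without day 1 16 h replicate 1, 83 without day 7 16 h replicate 3, and between 7 and 12 without each of 9 other single tumours. Leaving out the 5 tumours of keratinocyte level above 7 left 1 day 1 tumour at 8 h, so no count is given for that fit. A fit of the 18 tumours alone with hour as a block gave 14 higher and 25 lower, and one with the length index as a covariate 358 higher and 236 lower. Over the alternatives tried, Stfa2l1 passed in 30 of 31, Igfbp6, S100a8, Nupr1 and Mex3a in 29 of 31, Casp1 in 21 of 31, H2-T23 in 16 of 31, S100a9 and Tln2 in 15 of 31, Mgp in 10 of 31, Casp4 and Parp1 in 9 of 31 and Gzmm in 8 of 30.

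**Figure D2:**
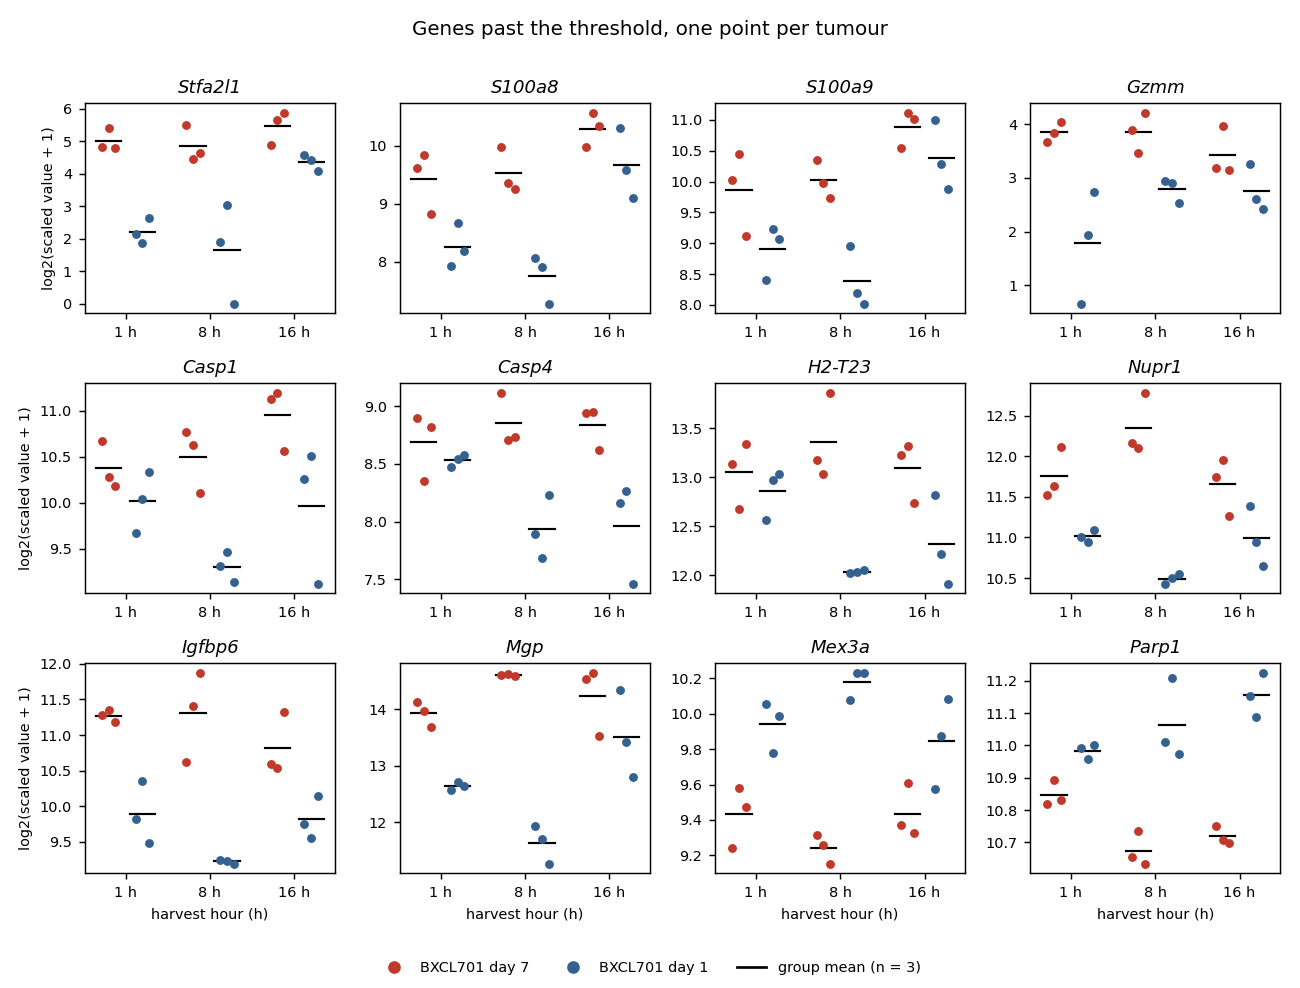
log2(scaled value + 1) of 12 genes past the threshold (y axes) by harvest hour (x axes), 1 point per BXCL701 tumour, day 7 in red on the left and day 1 in blue on the right of each hour, with the mean of each group of 3 as a line. Stfa2l1, S100a8 and S100a9 differ least at 16 h, where day 1 tumours were high, while Igfbp6 and Parp1 have no overlap between the 9 day 7 and the 9 day 1 tumours.

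Of 13 listed neutrophil genes tested, 3 rose and none fell on day 7, where 0.102% of all genes rose. Of the 13, 12 were higher, with a median difference of 0.86 over the 3 hours and no gene past the hour by day interaction test. Stfa2l1, a stefin that inhibits cysteine proteases and is transcribed in mouse neutrophils, lies on chromosome 16 (GRCm38, 36156811 to 36161953). It had 26.9, 41.6 and 26.9 in the 1 h tumours of day 7 against 3.44, 2.64 and 5.15 in those of day 1. At 8 h Stfa2l1 had 44.1, 20.8 and 23.7 on day 7 against 2.68, 7.15 and 0 on day 1, and at 16 h it had 28.3, 49.5 and 57.3 on day 7 against 22.5, 20.5 and 16.0 on day 1. The arms overlapped only through day 1 16 h replicate 1, whose 22.5 lay above the lowest day 7 value of 20.8. Its difference was 2.37 ± 0.36 (SE, n = 9 and 9 tumours, limma adjusted p = 0.00305), and in vehicle tumours it was -0.003 ± 0.62 (SE, n = 3 and 3). The predicted gene Gm5483, which lies on the same chromosome from 36184212 to 36188111, also rose, by 2.20 ± 0.37 (limma adjusted p = 0.0058); how reads shared by similar neighbouring copies were counted is not given in the sources used here.

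S100a8 and S100a9 encode the calprotectin subunits, the most abundant cytoplasmic proteins of neutrophils. S100a8 ran between 452 and 1512 in day 7 tumours (median 911) and between 154 and 1262 in day 1 tumours (median 290), and rose by 1.19 ± 0.21 (SE, limma adjusted p = 0.00658). S100a9 ran between 557 and 2214 in day 7 tumours (median 1300) and between 259 and 2051 in day 1 tumours (median 533), and rose by 1.03 ± 0.21 (limma adjusted p = 0.0323). The arms overlapped for both genes, and the 3 day 1 16 h tumours held the highest day 1 values of each. Not passing, but close to the threshold, were the neutrophil collagenase Mmp8 (1.31 ± 0.31, adjusted p = 0.0592), the G-CSF receptor Csf3r (0.63 ± 0.15, adjusted p = 0.0592) and the siderophore-binding Lcn2 (1.62 ± 0.39, adjusted p = 0.0592). Ly6g, the surface protein that defines mature mouse neutrophils, had a median of 4.39 on day 7 and 0.911 on day 1, and the granule gene Camp stayed under 1 in both medians.

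Averaged over the 13 neutrophil genes, the log2 level was 6.25 to 6.73 at 1 h, 6.25 to 6.78 at 8 h and 6.22 to 7.26 at 16 h in day 7 tumours. In day 1 tumours it was 4.96 to 5.50 at 1 h, 5.1 to 5.45 at 8 h and 5.94 to 6.88 at 16 h. The arms were apart at 1 and 8 h and overlapped at 16 h. Vehicle tumours had 5.64 to 5.82 on day 7 and 5.13 to 5.95 on day 1. In bulk tissue, fewer cells of a type and less RNA per cell cannot be told apart, here and in the lists below. Red blood cell markers were also higher in the 8 h tumours of day 7, but not at 1 h, where their median difference was -0.07; their part in the neutrophil values was not tested.

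Among inflammasome and pyroptosis genes, 2 of 12 tested rose and none fell, where 0.102% of all genes rose and 0.0181% fell, and the list's median difference was 0.19. Casp1 encodes the caspase that cuts gasdermin D and pro-IL-1β. It had 1635, 1247 and 1161 at 1 h, 1750, 1584 and 1105 at 8 h and 2235, 2346 and 1511 at 16 h on day 7. On day 1 Casp1 had 815, 1057 and 1291 at 1 h, 637, 704 and 563 at 8 h and 1228, 1463 and 557 at 16 h. The 3 tumours of each day were apart at 8 and 16 h and overlapped at 1 h. Casp1 rose by 0.85 ± 0.16 (SE, n = 9 and 9, limma adjusted p = 0.0191), against 0.13 ± 0.28 in vehicle tumours.

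Casp4, its neighbour on chromosome 9 (GRCm38, 5308828 to 5336783), encodes the caspase that senses cytoplasmic lipopolysaccharide, often called caspase-11 in mice. Casp4 ran between 326 and 553 in day 7 tumours (median 451) and between 175 and 381 in day 1 tumours (median 299). It rose by 0.65 ± 0.14 (limma adjusted p = 0.0475), with differences of 0.16 at 1 h, 0.92 at 8 h and 0.87 at 16 h. At 8 h alone Gsdmd, which encodes the pore-forming gasdermin D, rose by 1.06 ± 0.24 (adjusted p = 0.026) and Il1b by 1.68 ± 0.39 (adjusted p = 0.0271). Over the 3 hours Gsdmd differed by 0.45 (adjusted p = 0.116) and Il1b by 0.37 (adjusted p = 0.404), neither past the threshold. At 8 h 4 of the list's 12 genes rose, where 3.23% of all genes rose and 1.02% fell. That count of 4 was 0 without day 7 8 h replicate 3, 0 without day 1 8 h replicate 2 or 3, 1 without day 1 8 h replicate 1, and 0 with either covariate set.

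No gene of the Interferon gamma response list (22 genes) passed over the 3 hours together; all 22 were higher on day 7, with a median difference of 0.88. The list's median difference was 0.11 at 1 h, 1.28 at 8 h and 1.44 at 16 h, and -0.27 in vehicle tumours. No gene of any kind passed at 16 h, and without day 1 16 h replicate 3 the 16 h median was 0.64. No interferon, class I or class II gene passed the hour by day interaction test. At 8 h alone 5 of the 22 rose (Igtp, Gbp2, Psmb9, Socs1 and Irf1), where 3.23% of all genes rose and 1.02% fell. Of 22 type I interferon genes 21 were higher (median 0.43), none passed over the 3 hours, and 4 rose at 8 h (Ifit3, Bst2, Xaf1 and Oasl1); the median was 0.26 at 1 h, 0.64 at 8 h and 0.64 at 16 h. Of 10 class I presentation genes all were higher (median 0.60), none of these passed over the 3 hours, and 7 rose at 8 h, among them the peptide transporter genes Tap1 and Tap2 and the immunoproteasome genes Psmb8, Psmb9 and Psmb10. Psmb9 is on both the interferon gamma and the class I list. The 8 class II genes were also all higher (median 0.68), and H2-DMa and H2-DMb1 rose at 8 h. Over the alternatives tried, the number that rose at 8 h ran between 0 and 7 for the interferon gamma list, 0 and 6 for type I, 0 and 8 for class I and 0 and 3 for class II.

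H2-T23 encodes Qa-1, the class Ib molecule that presents signal peptides to the NKG2A receptor of NK and CD8 T cells. In day 7 tumours H2-T23 had 8998, 6525 and 10366 at 1 h, 9268, 8379 and 14891 at 8 h and 9572, 10192 and 6833 at 16 h. In day 1 tumours it had 6040, 8021 and 8391 at 1 h, 4163, 4184 and 4241 at 8 h and 7221, 4767 and 3854 at 16 h. The days were apart at 8 h and overlapped at 1 and 16 h. H2-T23 rose by 0.76 ± 0.15 (SE, n = 9 and 9, limma adjusted p = 0.0285), and its difference in vehicle tumours was -0.54 ± 0.26 (SE, n = 3 and 3).

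Igtp, an interferon-induced GTPase that acts against intracellular pathogens, had 8766, 5586 and 10472 in the 8 h tumours of day 7 against 1618, 2140 and 1721 in those of day 1. At 1 h Igtp had 11114, 4466 and 8813 on day 7 against 4600, 6455 and 8602 on day 1, which overlap. Over the 3 hours it differed by 1.39 ± 0.32 (limma adjusted p = 0.0592) and at 8 h by 2.14 ± 0.55 (adjusted p = 0.0344). Gbp2, a guanylate-binding protein that coats vacuoles of pathogens, had 16501, 9438 and 15713 at 8 h on day 7 against 4194, 4452 and 4601 on day 1. Over the 3 hours Gbp2 differed by 1.06 ± 0.28 (adjusted p = 0.0769). Gene families such as these guanylate-binding proteins and the class I genes hold similar copies, between which the authors' counting could split reads. A single day 1 tumour, 16 h replicate 3, held the lowest values of the arm for Igtp (636), Gbp2 (1423) and Cxcl9 (643), and the same tumour was among the 4 day 1 tumours with a keratinocyte level above 7. The 5 tumours above that level include day 1 8 h replicates 1 and 2, so without them 1 day 1 tumour was left at 8 h. The median differences there were then 1.24 over the 22 interferon gamma genes and 1.19 over the 10 class I genes.

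The promoter windows of H2-T23, Igtp and Gbp2 are shown because each holds the letters GAAANNGAAA on one strand. That is a pattern of interferon-stimulated response elements. Each of these genes was higher on day 7 at 8 h without overlap, and whether they share a regulator was not tested. The windows are RefSeq sequences of GRCm38.p6, 250 bases before to 50 after the gene's start, read 5′ to 3′ on the gene's strand: H2-T23 chr17:36032652-36032951 on the minus strand, Igtp chr11:58199306-58199605 on the plus strand and Gbp2 chr3:142620413-142620712 on the plus strand. Capitals mark GAAANNGAAA or its reverse complement, and in Igtp also TTCNNNGAA, a pattern of gamma-activated sites that lies beside it without overlap.
H2-T23: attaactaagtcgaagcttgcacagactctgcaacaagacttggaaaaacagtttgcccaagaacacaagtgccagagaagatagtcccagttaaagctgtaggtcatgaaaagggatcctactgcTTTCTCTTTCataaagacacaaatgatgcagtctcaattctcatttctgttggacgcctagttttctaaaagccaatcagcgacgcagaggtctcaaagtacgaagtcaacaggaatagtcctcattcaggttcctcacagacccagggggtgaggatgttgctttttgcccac
Igtp: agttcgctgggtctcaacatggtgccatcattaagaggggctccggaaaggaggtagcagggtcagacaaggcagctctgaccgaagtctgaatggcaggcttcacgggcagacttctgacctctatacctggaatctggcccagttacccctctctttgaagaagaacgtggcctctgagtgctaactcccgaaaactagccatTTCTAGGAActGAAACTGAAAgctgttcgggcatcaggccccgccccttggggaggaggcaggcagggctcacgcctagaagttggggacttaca
Gbp2: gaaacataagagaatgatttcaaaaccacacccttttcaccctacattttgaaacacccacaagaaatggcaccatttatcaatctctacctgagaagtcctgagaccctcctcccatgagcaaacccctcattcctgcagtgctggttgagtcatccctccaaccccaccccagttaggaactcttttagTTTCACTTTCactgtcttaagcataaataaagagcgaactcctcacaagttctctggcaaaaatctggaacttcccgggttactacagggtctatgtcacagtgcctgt
Of 32851 RefSeq windows of this length, 3.44% hold GAAANNGAAA and 8.3% hold TTCNNNGAA on either strand. The windows of Casp1, Casp4 and Cxcl9 hold neither. A match describes letters in the window and says nothing of a factor's binding.

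**Figure D3:**
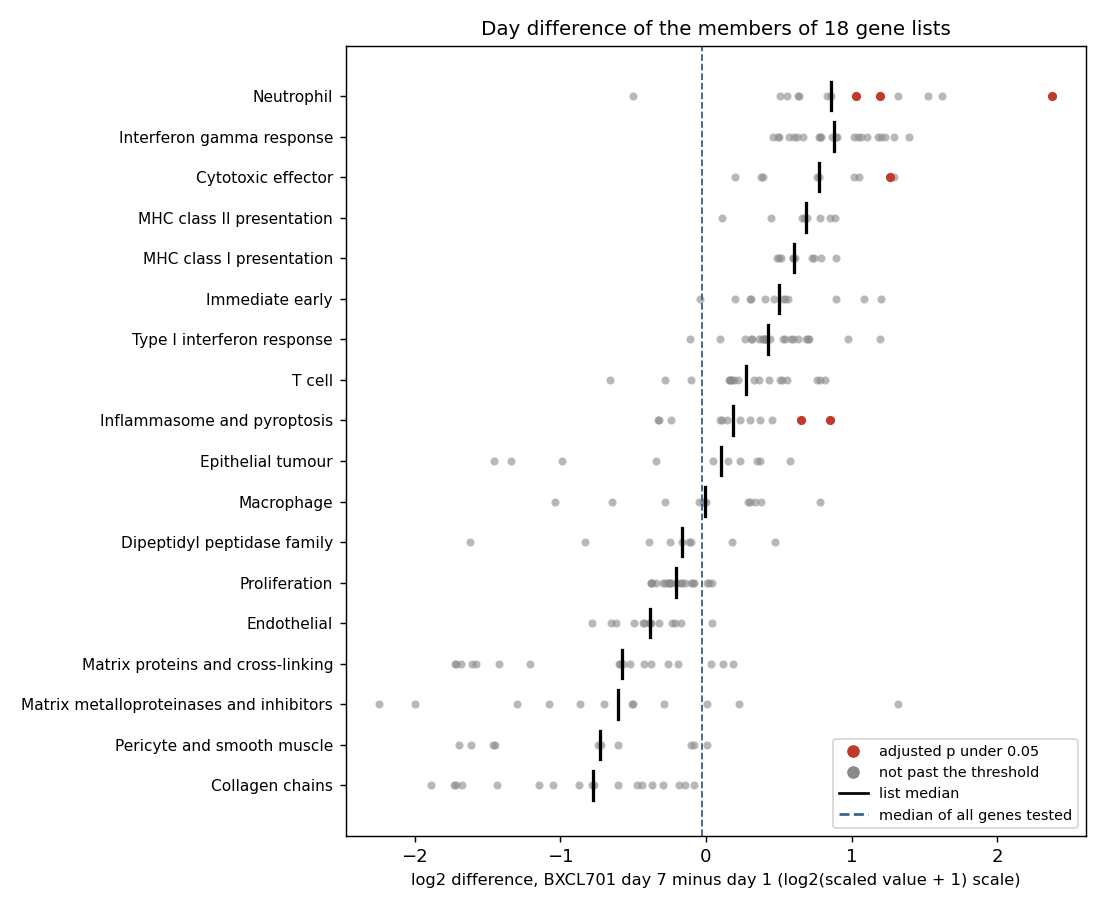
log2 difference, BXCL701 day 7 minus day 1, of the members of 18 gene lists (x axis, log2(scaled value + 1) scale; lists on the y axis), 1 point per gene, red where the adjusted p was under 0.05, with the list median as a black line and the median of all genes tested as a dashed line. All interferon gamma, class I, class II and cytotoxic genes lie above 0 and all collagen chains below it, with 1 red point among them, Gzmm.

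Of the Cytotoxic effector list 1 of 9 genes, Gzmm, rose on day 7, where 0.102% of all genes rose. All 9 were higher, with a median of 0.77 over the 3 hours and medians of 0.12 at 1 h, 1.10 at 8 h and 1.30 at 16 h. Without day 1 16 h replicate 3 the 16 h median was 0.58; the mean log2 levels of the list at 16 h were 5.53, 5.99 and 5.31 on day 7 and 5.62, 4.66 and 3.69 on day 1, which overlap. Gzmm encodes granzyme M, a protease of NK cell granules. It had 11.8, 13.2 and 15.4 at 1 h, 13.8, 10.02 and 17.5 at 8 h and 8.14, 14.5 and 7.84 at 16 h on day 7, against 0.582, 2.84 and 5.69 at 1 h, 6.68, 6.48 and 4.79 at 8 h and 8.57, 5.11 and 4.38 at 16 h on day 1. The days overlapped at 16 h only. Gzmm rose by 1.26 ± 0.27 (limma adjusted p = 0.0458), and in vehicle tumours, where it had 4.09, 2.88 and 9.21 on day 7 against 10.5, 23.4 and 12.2 on day 1, the difference was -1.40 ± 0.46.

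Prf1, the pore-forming perforin, ran between 46.2 and 217 on day 7 (median 140) and between 25.1 and 161 on day 1 (median 65.2), a difference of 1.05 ± 0.30 (limma adjusted p = 0.094). Ifng itself ran between 8.80 and 55.3 on day 7 (median 37.6) and between 1.49 and 38.8 on day 1 (median 15.6), a difference of 1.29 ± 0.40 (adjusted p = 0.123). Both overlapped between days. Cd8a, the CD8 coreceptor chain, had medians of 331 on day 7 and 154 on day 1 and differed by 0.78 ± 0.27 (adjusted p = 0.147). No gene of the 18 in the T cell list and none of the 12 in the NK cell list passed over the 3 hours, and their medians were 0.28 and 0.21. The chemokines Cxcl9 and Cxcl10, which draw CXCR3-bearing T cells, differed by 0.90 ± 0.35 (adjusted p = 0.191) and 0.61 ± 0.28 (adjusted p = 0.268).

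Among the other genes that rose, Igfbp6 encodes a secreted protein that binds insulin-like growth factor II. It had 2489, 2618 and 2324 at 1 h, 1579, 2723 and 3746 at 8 h and 1550, 1479 and 2556 at 16 h on day 7, against 903, 1308 and 715 at 1 h, 608, 602 and 584 at 8 h and 858, 752 and 1131 at 16 h on day 1. Every day 7 tumour lay above every day 1 tumour, as for 4 of all genes tested (0.0241%). Igfbp6 rose by 1.49 ± 0.23 (SE, n = 9 and 9, limma adjusted p = 0.0036), against 0.23 ± 0.41 in vehicle tumours. The remaining genes without overlap above were 9130008F23Rik, Htr6 and Def8, which did not pass.

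Mgp encodes matrix Gla protein, an inhibitor of calcification. Mgp had 17935, 16040 and 13211 at 1 h, 24883, 25394 and 24804 at 8 h and 23803, 25621 and 11815 at 16 h on day 7, against 6060, 6722 and 6427 at 1 h, 3902, 3349 and 2466 at 8 h and 20736, 10937 and 7126 at 16 h on day 1. The days were apart at 1 and 8 h and overlapped at 16 h. It rose by 1.66 ± 0.35 (limma adjusted p = 0.0475), and in vehicle tumours the difference was 0.58 ± 0.61. Mgp did not pass in 21 of 31 alternatives. Nupr1, a stress-induced chromatin protein, ran between 2468 and 7036 on day 7 (median 3980) and between 1380 and 2690 on day 1 (median 1963), and rose by 1.09 ± 0.19 (adjusted p = 0.00658). Nupr1 at 8 h had 4600, 4395 and 7036 on day 7 against 1380, 1443 and 1502 on day 1.

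Camk2n1, an inhibitor of the calcium-dependent kinase CaMKII, ran between 1080 and 1664 on day 7 and between 751 and 1186 on day 1, and rose by 0.55 ± 0.10 (limma adjusted p = 0.00658). Prss12, a serine protease known as neurotrypsin, ran between 964 and 2399 on day 7 and between 606 and 1162 on day 1, and rose by 0.70 ± 0.14 (adjusted p = 0.0323). Plekha4, a phosphoinositide-binding protein, ran between 386 and 776 on day 7 and between 204 and 639 on day 1, and rose by 0.80 ± 0.17 (adjusted p = 0.0458), with a difference of 0.03 at 16 h. Apoh, a plasma glycoprotein best known from liver, was low, with medians of 16.6 on day 7 and 5.94 on day 1, and rose by 1.34 ± 0.26 (adjusted p = 0.0203). Mgp, Gm5483, the low-level bile acid synthesis gene Cyp8b1 (1.71 ± 0.37, adjusted p = 0.0475) and the predicted gene Gm4841 (1.37 ± 0.28, adjusted p = 0.0323) passed as well but fell outside the naming rule, and were named after their values were seen.

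Mex3a, an RNA-binding protein, fell on day 7. It had 605, 765 and 708 at 1 h, 636, 612 and 568 at 8 h and 660, 781 and 640 at 16 h on day 7, against 1062, 876 and 1014 at 1 h, 1078, 1200 and 1199 at 8 h and 763, 938 and 1084 at 16 h on day 1. Of the day 7 tumours 2, with 765 and 781, lay above the lowest day 1 tumour, with 763. Mex3a differed by -0.62 ± 0.10 (SE, n = 9 and 9, limma adjusted p = 0.0058) and by -0.005 ± 0.18 in vehicle tumours. Tln2, the talin that links integrins to actin in muscle and brain, ran between 1591 and 2458 on day 7 (median 1943) and between 2268 and 3819 on day 1 (median 2835). Tln2 fell by 0.53 on the log2 scale (SE 0.11, adjusted p = 0.0323), and skeletal muscle markers were also lower on day 7 (13 of 14, median -2.28); their part in the Tln2 difference was not tested.

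Parp1, which marks DNA breaks with poly(ADP-ribose), had 1804, 1901 and 1820 at 1 h, 1613, 1702 and 1588 at 8 h and 1722, 1669 and 1661 at 16 h on day 7. On day 1 Parp1 had 2034, 1987 and 2047 at 1 h, 2064, 2364 and 2008 at 8 h and 2276, 2176 and 2391 at 16 h. Every day 7 tumour lay below every day 1 tumour, as for 6 of all genes tested (0.0361%). It fell by 0.32 on the log2 scale (SE 0.07, limma adjusted p = 0.0458), against 0.01 ± 0.12 in vehicle tumours. Of 21 proliferation genes none passed over the 3 hours; 18 were lower, with a median of -0.21, and at 8 h Ccnb2, a mitotic cyclin, fell by 0.76 on the log2 scale (adjusted p = 0.029).

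Collagen and other matrix genes were lower in day 7 tumours without any gene past the threshold. All 18 collagen chains tested were lower, with a median difference of -0.78, where 8960 of all 16613 genes tested were lower. Of the 18 chains, 12 were lower at an unadjusted p under 0.05, where 8.84% of all genes were. The medians by hour were -0.34 at 1 h, -1.16 at 8 h and -0.93 at 16 h, and -0.30 in vehicle tumours. Col5a1, which nucleates collagen fibrils, had 15662, 18075 and 25067 at 1 h, 11950, 16423 and 20910 at 8 h and 9814, 10510 and 14194 at 16 h on day 7, against 31521, 27590 and 24549 at 1 h, 31086, 31903 and 40967 at 8 h and 15827, 20937 and 33542 at 16 h on day 1. The days were apart at 8 and 16 h and overlapped at 1 h. Col5a1 differed by -0.87 ± 0.21 (limma adjusted p = 0.0592). The basement membrane chains Col4a1 and Col4a2 differed least, by -0.08 ± 0.13 and -0.15 ± 0.13 (adjusted p = 0.771 and 0.604).

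Col12a1, a fibril-associated collagen, differed by -1.89 ± 0.65 (limma adjusted p = 0.151), with medians of 7628 on day 7 and 29503 on day 1. The matrix glycoprotein gene Tnc, encoding tenascin C, differed by -1.58 ± 0.48 (adjusted p = 0.116), with medians of 6880 on day 7 and 24600 on day 1. Of 18 other matrix genes 15 were lower (median -0.58), of 12 matrix metalloproteinases and inhibitors 9 were lower (median -0.60), of 10 pericyte and smooth muscle genes 9 were lower (median -0.73) and of 14 endothelial genes 13 were lower (median -0.39). None of these genes passed over the 3 hours. In vehicle tumours the median was -0.18 over the other matrix genes and -0.13 over the metalloproteinases and inhibitors. It was -0.34 there over the pericyte and smooth muscle genes and -0.34 over the endothelial genes. At 8 h the endothelial VEGF receptor gene Kdr fell by 1.21 on the log2 scale (adjusted p = 0.0473). With the keratinocyte, muscle and adipocyte levels as covariates the collagen median was -0.36 and all 18 chains were lower.

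**Figure D4:**
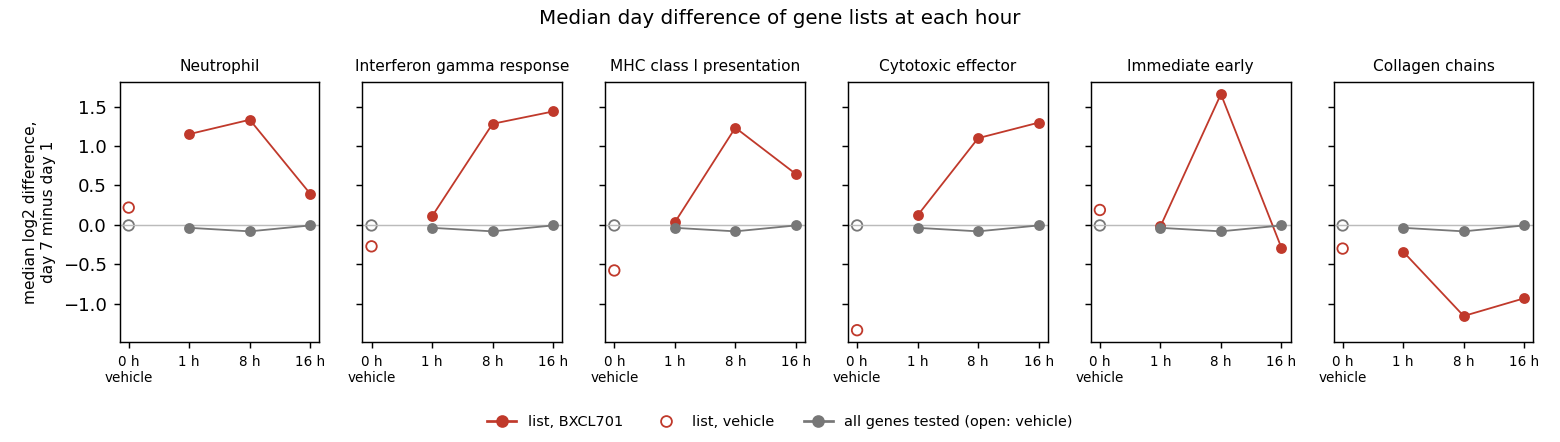
Median log2 difference, day 7 minus day 1 (y axis), of 6 gene lists (red) and of all genes tested (grey) at the 1, 8 and 16 h harvests of BXCL701 tumours (filled points) and at 0 h in vehicle tumours (open points). Neutrophil genes have their lowest BXCL701 median at 16 h (0.39), interferon gamma genes theirs at 1 h (0.11; their 16 h value of 1.44 was 0.64 without day 1 16 h replicate 3), and immediate early genes reach 1.66 at 8 h only.

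The day difference depended on the hour for 12 of 16613 genes (0.0722%) in the hour by day interaction test of limma (2156 at an unadjusted p under 0.05). Of these 12, 7 are genes of the rapid transcriptional response to stimuli: Fos, Ier2, Btg2, Junb, Zfp36, Dusp1 and Nr4a1, which were high at 8 h on day 7. Of the 12 listed immediate early genes none passed over the 3 hours together, 9 rose at 8 h (3.23% of all genes did) and 6 passed the interaction test; Btg2 is not on that list. The count of 12 ran between 5 and 14 when 1 tumour was left out. It is not given without the 5 tumours of keratinocyte level above 7, where 1 day 1 tumour was left at 8 h. The list's median difference was -0.02 at 1 h, 1.66 at 8 h and -0.29 at 16 h.

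Fos, a subunit of the AP-1 transcription factor, had 409, 314 and 365 at 1 h, 5095, 12306 and 2295 at 8 h and 1194, 1070 and 1211 at 16 h on day 7. On day 1 Fos had 466, 385 and 510 at 1 h, 414, 386 and 654 at 8 h and 2698, 1995 and 781 at 16 h. The days were apart at 8 h only, and the 16 h tumours of both days lay above the 1 h tumours. Its difference was -0.32 ± 0.38 at 1 h, 3.47 ± 0.38 at 8 h (SE, n = 3 and 3 tumours, limma adjusted p = 4.37e-06) and -0.48 ± 0.38 at 16 h (interaction adjusted p = 0.000206). Vehicle tumours at 0 h had 751, 438 and 506 on day 7 and 416, 237 and 454 on day 1.

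Nr4a1, an orphan nuclear receptor induced within an hour of stimulation, had 2380, 5629 and 3879 at 8 h on day 7 against 406, 406 and 461 on day 1, a difference of 3.14 ± 0.46 (limma adjusted p = 0.000297). Ier2, an immediate early nuclear protein, had 3195, 5346 and 4902 at 8 h on day 7 against 1042, 913 and 949 on day 1, a difference of 2.18 ± 0.27 (adjusted p = 2.98e-05). Dusp1, the phosphatase that switches off MAP kinases, differed by 2.06 ± 0.32 at 8 h (adjusted p = 0.000695), the antiproliferative Btg2 by 1.96 ± 0.25, the mRNA-decay factor Zfp36 by 1.68 ± 0.23 and the AP-1 subunit Junb by 1.47 ± 0.20. At 8 h none of these genes overlapped between days. Fosb, a further AP-1 subunit, rose at 8 h by 2.89 ± 0.49 (adjusted p = 0.00375) but did not pass the interaction test (adjusted p = 0.193). Jun itself differed by 0.35 at 8 h (adjusted p = 0.286).

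**Figure D5:**
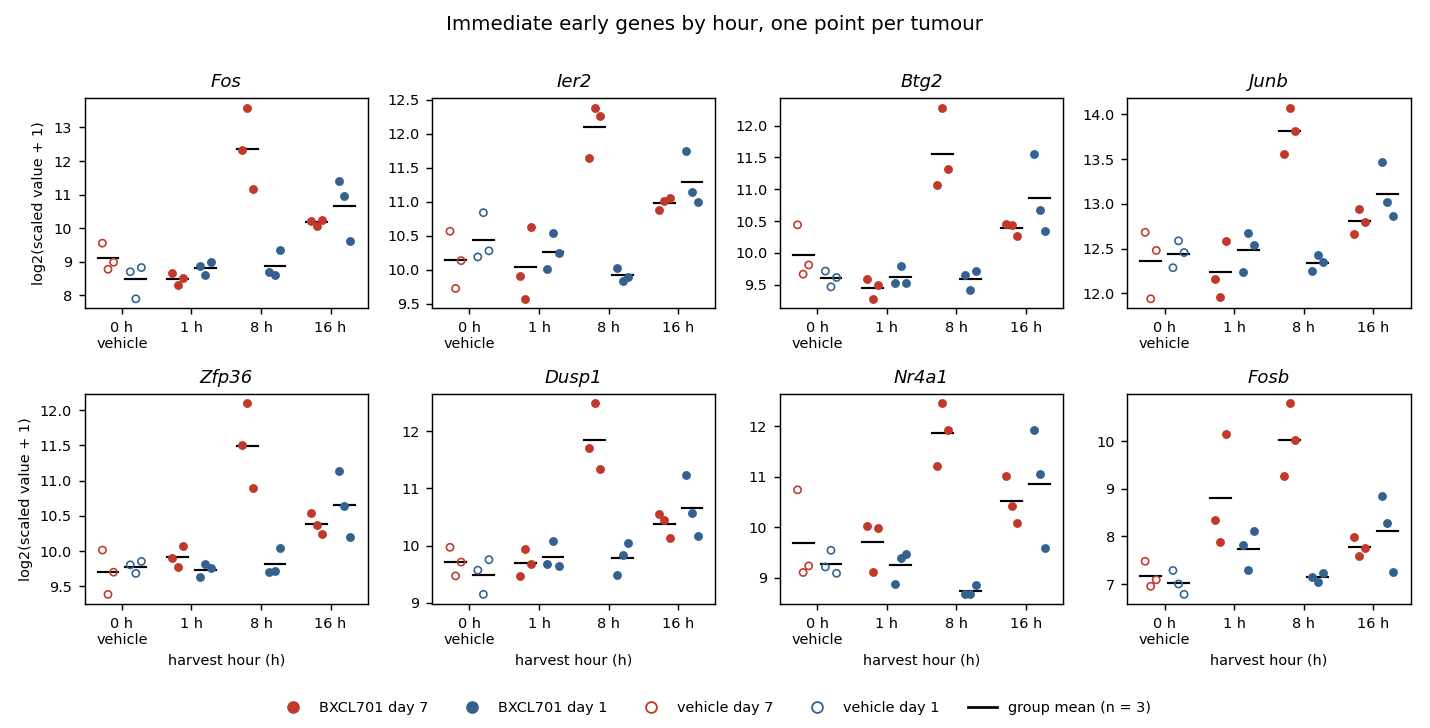
log2(scaled value + 1) of 8 immediate early and related genes (y axes) by harvest hour (x axes), 1 point per tumour, with the mean of each group of 3 as a line; filled points are BXCL701 tumours, open points vehicle tumours at 0 h, day 7 in red and day 1 in blue. At 8 h the 3 day 7 tumours lie above the 3 day 1 tumours in every panel, and at 16 h the days overlap in every panel.

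Promoter windows of 3 of these genes are printed because they hold response elements known from immediate early genes. In the Btg2 window (chr1:134079106-134079405, minus strand) and the Dusp1 window (chr17:26508423-26508722, minus strand) capitals mark TGACGTCA, the palindromic cyclic AMP response element. In the Zfp36 window (chr7:28379179-28379478, minus strand) they mark a CArG box, the element of serum response factor, and TTCNNNGAA, which do not overlap. All are RefSeq windows of GRCm38.p6, 5′ to 3′ on the gene's strand.
Btg2: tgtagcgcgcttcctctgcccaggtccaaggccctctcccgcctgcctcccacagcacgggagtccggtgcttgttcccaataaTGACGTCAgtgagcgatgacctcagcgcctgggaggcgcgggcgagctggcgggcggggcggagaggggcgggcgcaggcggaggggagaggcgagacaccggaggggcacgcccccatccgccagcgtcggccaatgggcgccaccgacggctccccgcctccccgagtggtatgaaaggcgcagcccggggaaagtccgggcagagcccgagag
Dusp1: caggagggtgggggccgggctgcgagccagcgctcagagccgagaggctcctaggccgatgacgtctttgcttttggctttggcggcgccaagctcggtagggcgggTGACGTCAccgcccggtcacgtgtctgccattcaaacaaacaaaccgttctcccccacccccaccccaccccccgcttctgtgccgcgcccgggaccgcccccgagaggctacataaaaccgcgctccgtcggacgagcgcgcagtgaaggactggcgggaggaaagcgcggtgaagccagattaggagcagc
Zfp36: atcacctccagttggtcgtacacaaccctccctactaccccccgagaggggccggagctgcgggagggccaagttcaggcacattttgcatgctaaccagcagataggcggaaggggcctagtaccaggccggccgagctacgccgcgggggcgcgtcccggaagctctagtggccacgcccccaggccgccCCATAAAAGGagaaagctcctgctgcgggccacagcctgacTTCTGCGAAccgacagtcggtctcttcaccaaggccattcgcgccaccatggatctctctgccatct
TGACGTCA occurs in 1.79% and a CArG box in 1.63% of the 32851 windows. The windows of Fos, Junb and Nr4a1 hold no full match to any of the 4 patterns searched. Partial matches, and elements outside the 250 bases before and 50 after the start, were not searched.

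The remaining interaction genes were Snai1, Dync1h1, Lrp1, Sptan1 and Stab1. Snai1, a repressor of epithelial genes, differed by -0.77 ± 0.24 at 1 h, 0.89 ± 0.24 at 8 h and -0.76 ± 0.24 at 16 h (limma interaction adjusted p = 0.0282). Dync1h1, the heavy chain of cytoplasmic dynein, had 15722, 15549 and 14376 at 1 h, 11860, 12281 and 11104 at 8 h and 10350, 9686 and 7936 at 16 h on day 7, against 7509, 8818 and 10256 at 1 h, 10412, 12157 and 12888 at 8 h and 14865, 13544 and 12571 at 16 h on day 1. Day 7 tumours were above day 1 tumours at 1 h and below them at 16 h (interaction adjusted p = 0.0197). Lrp1, Sptan1 and Stab1 shared that order, with differences of 0.63, 0.47 and 0.69 at 1 h and -0.85, -0.50 and -0.93 at 16 h. Lrp1 encodes an endocytic receptor, Sptan1 a spectrin chain and Stab1 a scavenger receptor of macrophages and endothelium.

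By single hours, 705 genes passed at 8 h (536 higher and 169 lower), 3 at 1 h (0.0181%) and 0 at 16 h with limma, where 940 genes had an unadjusted p under 0.05. The 8 h count was 20 without day 7 8 h replicate 3, 1943 without replicate 1, and 19, 21 and 28 without day 1 8 h replicates 3, 1 and 2; it was 14 with the neighbouring-tissue covariates and 13 with a covariate for that length index. In both covariate fits 7 of the 12 immediate early genes still passed at 8 h, and 8 passed without the 4 libraries of extreme length index. Over the alternatives tried, the number of these 12 genes that rose at 8 h ran between 2 and 9. Leaving out the 5 tumours of high keratinocyte level left 1 day 1 tumour at 8 h, and no count is given. At 1 h Nlrp12, an inhibitory NOD-like receptor of myeloid cells, rose by 1.99 ± 0.37 (adjusted p = 0.0493), Mfsd2b, a sphingosine-1-phosphate exporter of red cells and platelets, rose by 1.65 ± 0.31 (adjusted p = 0.05) and Foxa2, an endodermal transcription factor, fell by 1.33 on the log2 scale (adjusted p = 0.0296). The 1 h count was 0 or 1 without any 1 of the 6 tumours at that hour. All 5 red blood cell genes rose at 8 h, led by Hba-a1, which had 8960, 3320 and 1139 on day 7 against 197, 278 and 279 on day 1 (3.70 ± 0.93, adjusted p = 0.0324). The part of blood in the 8 h values was not tested.

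Clock genes were listed because the harvest hours span the day, and none of 16 passed. Dbp, a clock output transcription factor, had 251, 810 and 646 at 1 h, 1141, 2814 and 3446 at 8 h and 229, 223 and 280 at 16 h on day 7. On day 1 Dbp had 178, 204 and 222 at 1 h, 924, 885 and 1241 at 8 h and 142, 124 and 130 at 16 h. Both days were highest at 8 h, and day 7 was above day 1 at 1 and 16 h without overlap. The difference over the 3 hours was 1.12 ± 0.27 (limma adjusted p = 0.0592), with no dependence on hour past the threshold (interaction adjusted p = 0.877).

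None of the 9 genes tested of the dipeptidyl peptidase list passed. The list holds the drug's targets and also Prep, which is not a dipeptidyl peptidase. Of the 9 genes, 7 were lower on day 7, with a median of -0.16. Prep, a cytoplasmic prolyl endopeptidase, had 1541, 1398 and 1564 at 1 h, 1462, 1240 and 1214 at 8 h and 1403, 1506 and 1368 at 16 h on day 7, against 1718, 2014 and 2117 at 1 h, 1841, 1715 and 1898 at 8 h and 1723, 1638 and 1973 at 16 h on day 1. Its 9 day 7 values lay below its 9 day 1 values, as for 6 of all genes tested (0.0361%). The difference of Prep was -0.39 ± 0.10 (limma adjusted p = 0.0622). Dpp9 differed by -0.10 ± 0.09, Dpp8 by -0.16 ± 0.18, Dpp4 by -0.25 ± 0.27 and Fap, the stromal protease, by -0.83 ± 0.43, with adjusted p-values of 0.587, 0.679, 0.674 and 0.332. The level of an mRNA does not show the activity of the inhibited enzyme.

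Vehicle tumours of day 7 and day 1 were compared to give the values of the same calendar days without BXCL701. No gene passed with limma (3051 at an unadjusted p under 0.05), with 3 tumours on each day. Cytotoxic genes had a median difference of -1.34 there, class II genes -0.95, class I genes -0.58 and collagen chains -0.30. The difference of the 2 day differences, BXCL701 minus vehicle, joins treatment and hour, since vehicle tumours were taken at 0 h. No gene passed it (smallest adjusted p = 0.175; 3872 at an unadjusted p under 0.05). Leaving out predicted models, the 5 smallest p-values were those of Gzmm (2.66 ± 0.53), Sipa1l3 (-1.80 ± 0.39), Ifitm1 (1.37 ± 0.31), Hist2h2aa1 (4.50 ± 1.03) and Prf1 (2.57 ± 0.59). The vehicle day 1 replicate 2 held the highest Gzmm value of both vehicle groups (23.4) and a length index of -0.37, the lowest of the vehicle tumours.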

How the data were processed

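RNA from 42 tumours, 3 in each of 14 groups, was sequenced by the submitters. Reads were trimmed with Trimmomatic 0.36 and aligned with Bowtie 0.12.9 to GRCm38, per the submitters' processing notes. Which quantifier, annotation and scaling were used was not given in the sources used here. Values of the main deposited table are estimated reads per gene that are not whole and sum to like totals, so they were treated as a scaled signal and not as counts, and the true depth is unknown. A deposited table of log2 FPKM values served as an alternative, and a further deposited log2 table, whose largest difference from it was 0, was set aside. No column lacked a sample (0 columns).

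The filter kept 16613 of 47729 genes, those reaching 10 in 3 or more libraries. limma 3.58.1 in R 4.3.3 (with the data.table package, version 1.17.8) was fitted with trend and robust settings on log2(value + 1), which understates changes of low genes, with 1 coefficient per group over all 42 libraries (28 residual degrees of freedom), so that hour was a block. p-values were adjusted over all genes tested by the Benjamini-Hochberg method, threshold 0.05.

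The members and 42 gene lists were chosen with earlier results of these data known. Named genes were the 12 smallest p-values in each direction without predicted models, up to 4 genes per list, a set of fixed genes, and the 5 smallest p-values of the interaction and of the BXCL701 minus vehicle difference; others named were chosen after their values were seen. A symbol with several identifiers was represented by the one with the highest mean. On simulated data with 200 of 16613 genes changed (50 per size), the comparison of days recovered 30% of genes raised 1.5-fold, 62% raised 2-fold, 90% raised 4-fold and 74% lowered 2-fold, with 1 false call. The simulated noise was independent between genes and held no shared variation of tissue or hour, unlike these libraries. These shares and the 1 false call therefore give no rates for the real data. Alternatives changed the scaling, filter, table, pseudocount, covariates and libraries. Coordinates and lengths came from GENCODE M21 (47310 identifiers matched) and promoters from RefSeq GRCm38.p6.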

Additional observations from a re-analysis of the deposited data

Results flagged for a closer look

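Among 148 groups of 9 tumours examined for a tumour far from the others, 6 held one; chance gives about 1 in 20 groups. Gzmm was lowest in day 1 1 h replicate 1 (0.582), and Mmp8 was low in day 7 8 h replicate 3 (8.38), the library with the largest total. The mean log2 level of heat shock genes was high in day 1 8 h replicate 3 (12.03). Fibroblast and endothelial levels were both low in day 7 16 h replicate 1 (9.42 and 7.46). The keratinocyte level was high in day 7 16 h replicate 3 (10.1).

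The day 7 minus day 1 difference itself differed between the 1, 8 and 16 h harvests for 12 genes in limma's interaction test. The adjusted p was 0.000206 for Fos, 0.000658 for Btg2, 0.000726 for Ier2, 0.00168 for Junb, 0.00866 for Zfp36, 0.023 for Dusp1 and 0.0282 for Nr4a1, all highest on day 7 at 8 h. It was 0.0197 for Dync1h1, 0.0197 for Lrp1, and 0.0282 each for Sptan1, Stab1 and Snai1.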

How the results depend on the processing

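Over the 3 hours 20 genes passed. The number was 11 with no filter on low values, 12 with neighbouring-tissue covariates and 594 with the transcript-length covariate (358 higher, 236 lower). It was 156 without the 1 h tumours, 0 without the 8 h tumours and 112 without the 16 h tumours. With the 18 libraries and hour as a block it was 39, and with a 2-fold minimum 11. Leaving out the tumours of keratinocyte level over 7 left 1 day 1 tumour at 8 h. Its counts over the 3 hours, at 8 h and for the interaction are therefore not given. That setting was added after seeing the data, as was leaving out the 4 libraries of extreme length index. Leaving out 1 tumour gave 7 to 172 (the tumours are named above). At 1 h 3 genes passed, 1 with a minimum of 50, 5 with the length covariate, 0 without the high keratinocyte tumours and 0 to 1 without 1 tumour. At 8 h 705 passed, 207 with no filter, 412 in the FPKM table, 14 with tissue covariates, 13 with the length covariate, 24 without the extreme length libraries and 19 to 1943 without 1 tumour. At 16 h 0 passed, 56 with the length covariate, 1 without the high keratinocyte tumours and 0 to 1 without 1 tumour (1 without day 1 16 h replicate 2). For vehicle 0 passed, 6 with no filter and 0 to 0 without 1 tumour; for the BXCL701 minus vehicle difference 0, 2 with no filter and 0 to 1 without 1 tumour (1 without vehicle day 7 replicate 3). The interaction count of 12 was 4 in the FPKM table, 7 with tissue covariates, 19 with the length covariate and 5 to 14 without 1 tumour. It was 5 without day 7 1 h replicate 1, day 7 16 h replicate 3, day 1 1 h replicate 2 and day 1 16 h replicates 1 and 2. The causes were not tested.

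Genes that had not passed changed sign as follows. Dpp4 was 0.0196 with tissue covariates. Dpp8 was 0.038 with the length covariate and 0.17 without the 8 h tumours, where Mki67 was 0.17 and Il6 -0.16. Il6 was -0.0151 with tissue covariates. Csf3 was 0.0387 with a pseudocount of 5, 0.69 with tissue covariates, 0.0218 without the 1 h and 0.20 without the 16 h tumours, 0.0192 without the high keratinocyte tumours, and -0.37 to 0.19 over the fits that left out 1 tumour, above 0 in 7 of these. No gene that passed changed sign. No paired analysis was possible because replicate numbers here follow accession order and pair no animals. Depth is unknown, so low values (Cyp8b1, Gzmm, Camp) have no counting interval.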

Other observations

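Lists not described above held no gene past the threshold over the 3 hours. Of the 9 mitochondrially encoded genes 8 were higher on day 7 (median 0.21), and the median was 0.61 in vehicle tumours. Of 12 unfolded protein response genes 10 were higher (median 0.10), and Ddit3, a stress transcription factor, rose at 8 h by 1.14. Among 10 p53 targets 7 were lower (median -0.09), while the death receptor gene Fas rose at 8 h by 1.28 and the cytokine gene Gdf15 by 1.71. Of 12 macrophage genes 7 were lower (median -0.01), and Mertk, a receptor for apoptotic cells, fell at 8 h by 1.47 on the log2 scale (limma adjusted p = 0.0314). The 15 cholesterol synthesis genes had a median of -0.14 with 12 lower. The factors that recruit neutrophils had a median of 0.29 over 8 genes, and of 0.67 in vehicle tumours. By hour their median was 0.09 at 1 h, 0.78 at 8 h and 0.11 at 16 h. Csf3 and Cxcl1 differed by -0.04 and 0.57 (limma adjusted p = 0.98 and 0.503). The 8 h count of all genes ran between 13 and 1943 over the alternatives that left more than 1 tumour in each group.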
